A study of Caenorhabditis elegans with 15 samples.

Results

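The lysozyme genes lys-1, lys-2, lys-3, lys-4, lys-5, lys-6, lys-7, lys-8 and lys-10 of the nematode Caenorhabditis elegans were taken by name from the gene count table. They were 9 of the 20191 genes in the table, and all 9 were among the 15032 genes that had enough counts to be tested. Messenger RNA was sequenced from whole worms on day 1 of adulthood, grown without stress, with 5 biological samples for each of 3 strains. The strains were the wild type N2, a fndc-1(rny14) mutant, and a double mutant carrying atfs-1(tm4525) and fndc-1(rny14). No library came from an atfs-1 single mutant, so an effect of the atfs-1 allele by itself cannot be told apart from its effect in worms that lack fndc-1 function.

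Lysozymes cut peptidoglycan, the polymer of bacterial cell walls. The lys genes of C. elegans encode lysozymes of the protist type, which resemble those of amoebae, whereas the ilys genes encode the invertebrate type. Many are made in the intestine, where they act in the digestion of the bacterial food and in defence against pathogens, and several are targets of the insulin, DBL-1 and p38 MAP kinase pathways. FNDC-1 is a receptor for mitophagy, the removal of mitochondria by autophagy. ATFS-1 is the transcription factor that drives the unfolded protein response of mitochondria, and is also known to raise innate immune genes under mitochondrial stress.

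Total counts ranged from 46984106 to 61921123 per library, and levels are given as counts per 1000000 scaled counts (CPM), with TMM factors. Whether the samples of a strain were separate cultures is not in the labels, and p-values therefore reflect only the spread seen between these libraries, part of which may be technical. The fndc-1 level was 40.9 ± 3.83 CPM (SD, n = 5) in the wild type, against 7.39 ± 0.130 and 7.95 ± 1.27 CPM in the single and the double mutant. The atfs-1 level was 104 ± 4.92, 93.4 ± 4.66 and 75.4 ± 4.59 CPM in the same order (SD, n = 5). The strains also differed elsewhere: 3 genes, 2 of them on chromosome X, had 0 counts in all 5 fndc-1 libraries and at least 100 counts in every library of the other strains, and none was a lysozyme gene. Sperm markers summed to 40.1 to 46.2 CPM in wild-type libraries 1, 3 and 5, to 353 and 284 CPM in wild-type libraries 2 and 4, and to 112 to 1081 CPM in the mutants.

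The 9 genes lie at 5 places in the genome (build WBcel235, Ensembl annotation). On chromosome V, lys-1 (10277904 to 10279056, plus strand), lys-2 (10280307 to 10281474, minus strand) and lys-3 (10282100 to 10283544, minus strand) form a run. The gaps in it are 1250 and 625 bases, with 0 protein-coding genes between neighbours. On chromosome IV, lys-4 (11621429 to 11623174), lys-5 (11624252 to 11625582) and lys-6 (11626910 to 11627947) form a second run on the minus strand, with gaps of 1077 and 1327 bases and again 0 protein-coding genes between. The other 3 stand alone: lys-7 on chromosome V (3481432 to 3482600, minus strand), lys-8 on chromosome II (5586178 to 5587651, plus strand) and lys-10 on chromosome IV (8332826 to 8333518, plus strand). An exon of lys-8 overlaps one of C17G10.13, on the opposite strand, by 38 bases. The strand setting of the counting is not given in the sources used here, so reads from that overlap cannot be assigned to one gene. The C17G10.13 count was 1488 to 1990 per library, and the lys-8 count was 5790 to 17181.

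**Figure D1:**
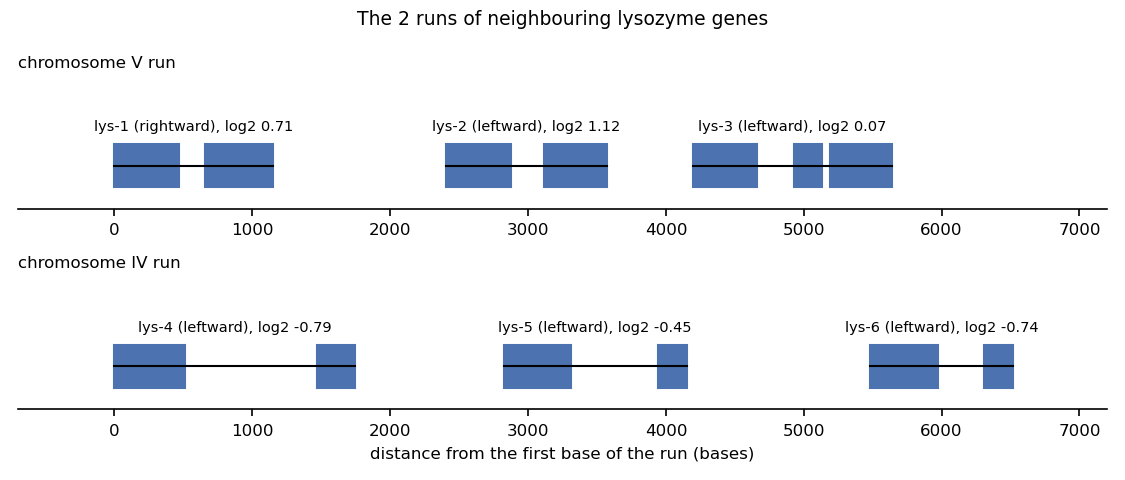
The chromosome V run and the chromosome IV run of neighbouring lysozyme genes, drawn to scale by distance in bases from the first base of each run, with exons as boxes, introns as lines and the direction of transcription in words. The number beside each gene is its log2 fold change of the double mutant over the wild type: 0.71, 1.12 and 0.07 in the first run, and -0.79, -0.45 and -0.74 in the second.

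The genes spanned a wide range of levels, and lys-4 led in every strain. Levels between genes were compared as CPM per kilobase of exon (SD, n = 5). In the wild type, lys-4 stood at 761 ± 279 CPM per kilobase and in all 5 libraries above lys-1, the next, at 215 ± 19.1 CPM per kilobase. The range of lys-1 overlapped that of lys-7, at 190.3 ± 60.0 CPM per kilobase, and the range of lys-7 overlapped that of lys-8, at 136 ± 10.7 CPM per kilobase. Below them came lys-2 at 77.8 ± 8.35, lys-6 at 24.2 ± 10.3, lys-5 at 6.97 ± 3.28, lys-10 at 2.55 ± 1.46 and lys-3 at 0.589 ± 0.239 CPM per kilobase. Of these lower genes, lys-5 and lys-10 overlapped, as did lys-10 and lys-3, although each stood above the next in all 5 libraries.

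The order of the upper 5 genes was not the same in the mutants. In the fndc-1 mutant it was lys-4 at 495 ± 105, lys-1 at 263 ± 64.8, lys-8 at 155 ± 35.1, lys-7 at 101 ± 37.4 and lys-2 at 88.7 ± 25.3 CPM per kilobase (SD, n = 5). The range of lys-4 lay above that of lys-1, and each later pair of neighbours overlapped. In the double mutant it was lys-4 at 441 ± 118, lys-1 at 351 ± 66.0, lys-8 at 216 ± 51.6, lys-2 at 169 ± 31.9 and lys-7 at 116 ± 27.2 CPM per kilobase (SD, n = 5). Here every pair of neighbours overlapped, lys-4 and lys-1 included, and lys-4 stood above lys-1 in 4 of 5 libraries.

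The double mutant was compared with the wild type to ask how these genes stand when both mitophagy and the mitochondrial stress response are impaired. Levels of lys-1, lys-2 and lys-8 were higher in the double mutant, by 1.63-fold, 2.17-fold and 1.59-fold. None of the 9 was called lower. At an unadjusted p under 0.05 there were 7 of 9, against 21.3% of all genes. Besides the genes called higher, these were lys-4, lys-6, lys-7 and lys-10, each with a negative log2 fold change. The median log2 fold change over the 9 was -0.45, and over all genes tested -0.0023. For lys-1, lys-2 and lys-8, all 5 double-mutant libraries stood above all 5 wild-type libraries. Of all genes tested, 3.71% were called higher, 0.998% lower and 4.71% either way, at an adjusted p under 0.05 (edgeR quasi-likelihood test, Benjamini-Hochberg adjustment over all 15032 genes). The ranges of the strains lay apart, with the double mutant higher, for 4.42% of all genes. A transcript level in whole worms does not tell fewer cells of a type from less RNA per cell.

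lys-2 is a gene known to respond to infection. Its level was 76.99, 71.8, 67.4, 82.9 and 63.2 CPM in wild-type libraries 1 to 5. In the fndc-1 mutant it was 94.3, 99.0, 104, 63.6 and 51.5 CPM, and in the double mutant 138, 189, 129.6, 190.2 and 139 CPM. The double mutant lay above every library of both other strains, whereas fndc-1 libraries fell on both sides of the wild type. The log2 fold change of the double mutant over the wild type was 1.12 (SE 0.184, 95% interval 0.76 to 1.48, adjusted p = 0.003175). Over the fndc-1 mutant it was 0.93 (SE 0.183, 95% interval 0.57 to 1.29, adjusted p = 0.01911). The comparison with the wild type passed the threshold in all 28 other settings, with log2 fold changes of 0.85 to 1.22. The comparison with the fndc-1 mutant missed it in 7 of 28: at an adjusted p of 0.05651 without fndc-1 library 4, 0.05103 and 0.07274 without double-mutant library 2 or 4, and in 4 settings given in the section on processing.

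lys-1, known from work on infection with Serratia marcescens, was measured at 234.8, 209, 193, 205 and 188 CPM in wild-type libraries 1 to 5. The fndc-1 libraries gave 312, 282, 296, 193 and 178 CPM, and the double-mutant libraries 293, 444, 287, 327 and 333 CPM. The wild type and the double mutant did not overlap, and the fndc-1 mutant overlapped both. The log2 fold change of the double mutant over the wild type was 0.71 (SE 0.162, 95% interval 0.39 to 1.03, adjusted p = 0.02176). It was 0.71, 0.71 and 0.69 without wild-type library 2, 4 or 5, with adjusted p = 0.05064, 0.0542 and 0.07388. Without double-mutant library 4 or 5 it was 0.74 and 0.72, with adjusted p = 0.051 and 0.05613. Without both wild-type libraries 2 and 4 it was 0.72, with adjusted p = 0.06412.

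lys-8, known as a target of the DBL-1 and insulin pathways, was measured at 142.4, 138, 118, 138 and 124 CPM in wild-type libraries 1 to 5. The fndc-1 libraries gave 189, 169, 164, 116 and 112 CPM, and the double-mutant libraries 184, 296, 186, 174 and 207 CPM. As for lys-1, the double mutant lay wholly above the wild type and the fndc-1 mutant overlapped both. The log2 fold change of the double mutant over the wild type was 0.67 (SE 0.164, 95% interval 0.34 to 0.99, adjusted p = 0.03103). It missed the threshold in 11 of 28 other settings, with log2 fold changes of 0.42 to 0.76 among them. They included the settings without wild-type library 2, 3, 4 or 5 (adjusted p = 0.06477, 0.06745, 0.06428 and 0.09419), without fndc-1 library 2 (0.06106) and without double-mutant library 5 (0.07387).

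**Figure D2:**
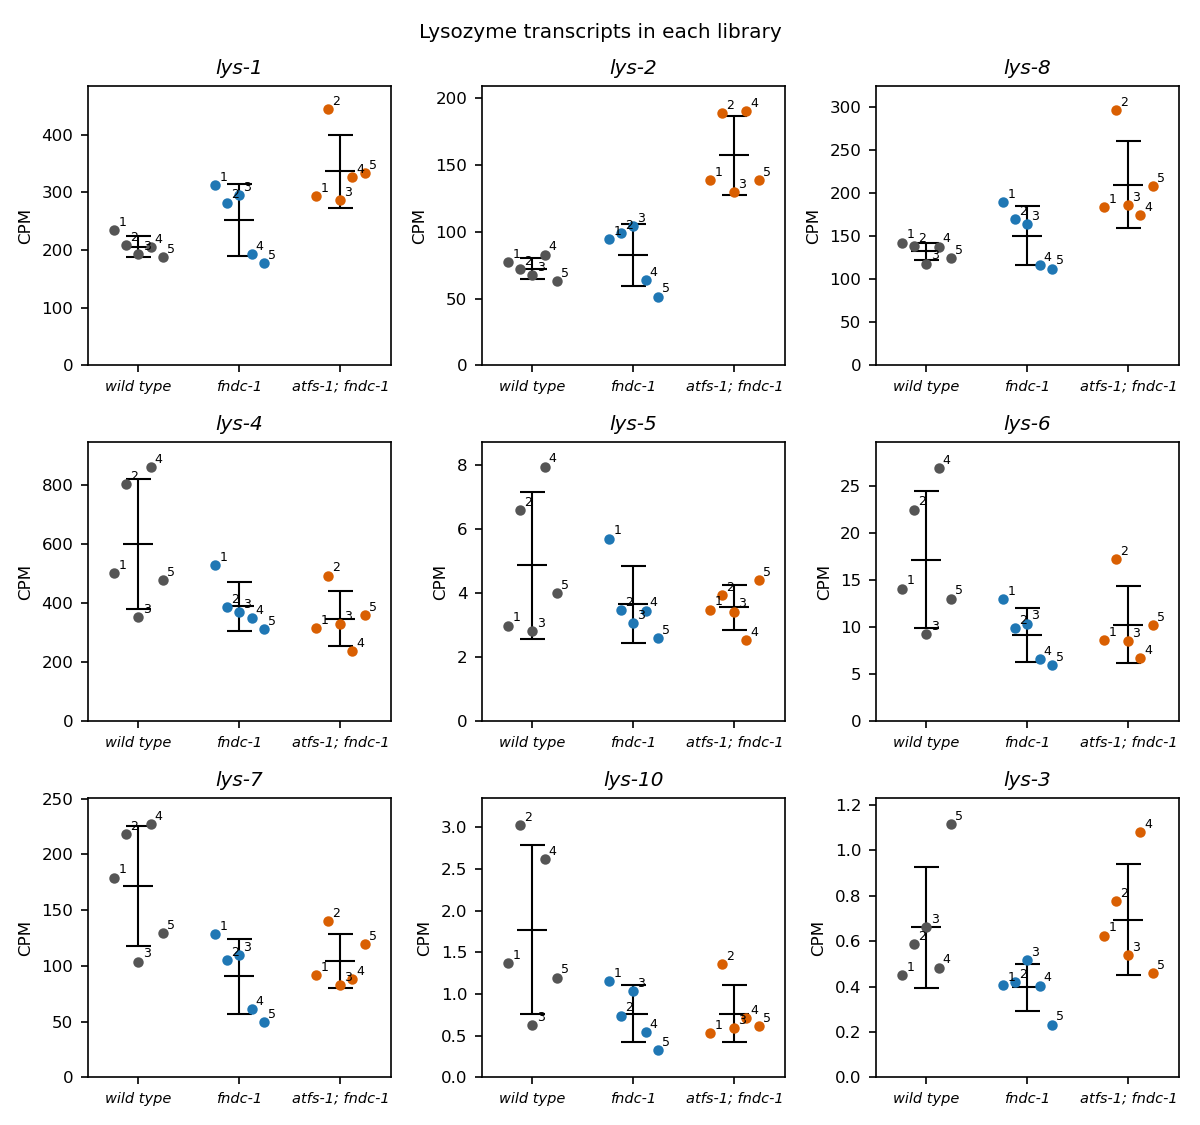
Level of each lysozyme gene in CPM (vertical axes, linear and starting at 0) in the 5 libraries of each strain, numbered 1 to 5, with the mean and SD drawn in black. For lys-1, lys-2 and lys-8 every double-mutant library lies above every wild-type library. For lys-4, lys-5, lys-6, lys-7 and lys-10 wild-type libraries 2 and 4 are the highest of their strain, as they are for 26.5% of all genes tested.

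The other 6 genes were not called in the double mutant. lys-4, the member with the highest level, was measured at 503, 802, 354, 861 and 479 CPM in the wild type. It was 529.7, 386, 369, 351 and 313 CPM in the fndc-1 mutant, and 316, 494, 330.3, 238 and 359.7 CPM in the double mutant. All 3 strains overlapped, with wild-type libraries 2 and 4 far above the rest. Its log2 fold change of the double mutant over the wild type was -0.79 (SE 0.244, 95% interval -1.27 to -0.31, adjusted p = 0.08496). It did pass the threshold with DESeq2 (-0.80, adjusted p = 0.01622), without wild-type library 3 (-0.93, adjusted p = 0.03429), and without double-mutant library 2 (-0.97, adjusted p = 0.02824). Without wild-type libraries 2 and 4 it was -0.35 (adjusted p = 0.3924).

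lys-7, a gene regulated by the insulin pathway factor DAF-16 and known to affect survival on several pathogens, was measured at 179, 218, 104, 228 and 129 CPM in the wild type. The fndc-1 libraries gave 128, 105, 109.7, 61.0 and 49.7 CPM, and the double-mutant libraries 92.1, 140.1, 82.5, 88.0 and 119.6 CPM. Both mutants overlapped the wild type, whose libraries 1, 2 and 4 lay above every mutant library. The log2 fold change was -0.72 in the double mutant over the wild type (95% interval -1.25 to -0.18, adjusted p = 0.164), and -0.92 in the fndc-1 mutant (95% interval -1.46 to -0.38, adjusted p = 0.1146). DESeq2 called the second of these (-0.91, adjusted p = 0.02389). Without wild-type libraries 2 and 4 the values were -0.39 and -0.58.

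lys-6, the third gene of the chromosome IV run, was measured at 14.1, 22.5, 9.27, 26.9 and 13.04 CPM in the wild type, 6.01 to 13.02 CPM in the fndc-1 mutant and 6.74 to 17.2 CPM in the double mutant. lys-5, known from work on Bacillus thuringiensis, was measured at 3.00, 6.60, 2.81, 7.96 and 4.01 CPM in the wild type, 2.6 to 5.72 CPM in the fndc-1 mutant and 2.54 to 4.42 CPM in the double mutant. lys-10 was measured at 1.38, 3.03, 0.623, 2.62 and 1.20 CPM in the wild type, 0.330 to 1.16 CPM in the fndc-1 mutant and 0.535 to 1.36 CPM in the double mutant. In all 3 genes, wild-type libraries 2 and 4 were the 2 highest of the 15 libraries and the strains overlapped. Those libraries were the highest of the wild type for 5 of the 9 members, and for 26.5% of all genes tested. The log2 fold changes in the double mutant over the wild type were -0.74 for lys-6, -0.45 for lys-5 and -1.20 for lys-10 (adjusted p = 0.206, 0.3731 and 0.142). Without wild-type libraries 2 and 4 they were -0.23, 0.13 and -0.47.

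lys-3 had the lowest level. It had 22 to 68 counts per wild-type library, 12 to 25 per fndc-1 library and 23 to 62 per double-mutant library. The highest wild-type value was that of library 5, at 1.12 CPM, and the highest double-mutant value that of library 4, at 1.08 CPM. The log2 fold change of the double mutant over the wild type was 0.07 (95% interval -0.53 to 0.67, adjusted p = 0.9003). These counts, with this spread between libraries, do not exclude a difference of lys-3 within that interval.

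The fndc-1 mutant was compared with the wild type to ask what the loss of the mitophagy receptor alone does. None of the 9 genes passed the threshold, against 1.87% of all genes tested, and none had ranges that lay apart, against 8.03%. At an unadjusted p under 0.05 there were 5 of 9, namely lys-3, lys-4, lys-6, lys-7 and lys-10, each with a negative log2 fold change; the share over all genes was 14.9%. DESeq2 called 1 of 9, lys-7, and limma-voom called 0. The log2 fold changes of those not yet given were 0.29 for lys-1 (95% interval -0.02 to 0.61), 0.19 for lys-2 (-0.17 to 0.54) and 0.19 for lys-8 (-0.14 to 0.51). For the rest they were -0.74 for lys-3, -0.62 for lys-4, -0.41 for lys-5, -0.90 for lys-6 and -1.21 for lys-10 (adjusted p = 0.281, 0.2333, 0.5939, 0.1828 and 0.1944). The median over the 9 was -0.62, and over all genes tested 0.0034. Without wild-type libraries 2 and 4 the values of lys-4, lys-5, lys-6 and lys-10 were -0.18, 0.18, -0.39 and -0.47.

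The fndc-1 libraries were uneven among themselves. lys-1 was at 282 to 312 CPM in libraries 1 to 3, all above the wild-type maximum of 234.8 CPM, and at 193 and 178 CPM in libraries 4 and 5, within or below the wild-type range. Libraries 4 and 5 were the 2 lowest of the strain for 8 of the 9 genes, all but lys-5, and for 32.6% of all genes tested. Library 5 was the lowest for all 9, against 26.4% of all genes. Oocyte and eggshell markers summed to 17235 and 17433 CPM in libraries 4 and 5 and to 13755 to 14376 CPM in libraries 1 to 3. The part of that difference in the lysozyme levels was not tested within the strain.

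**Figure D3:**
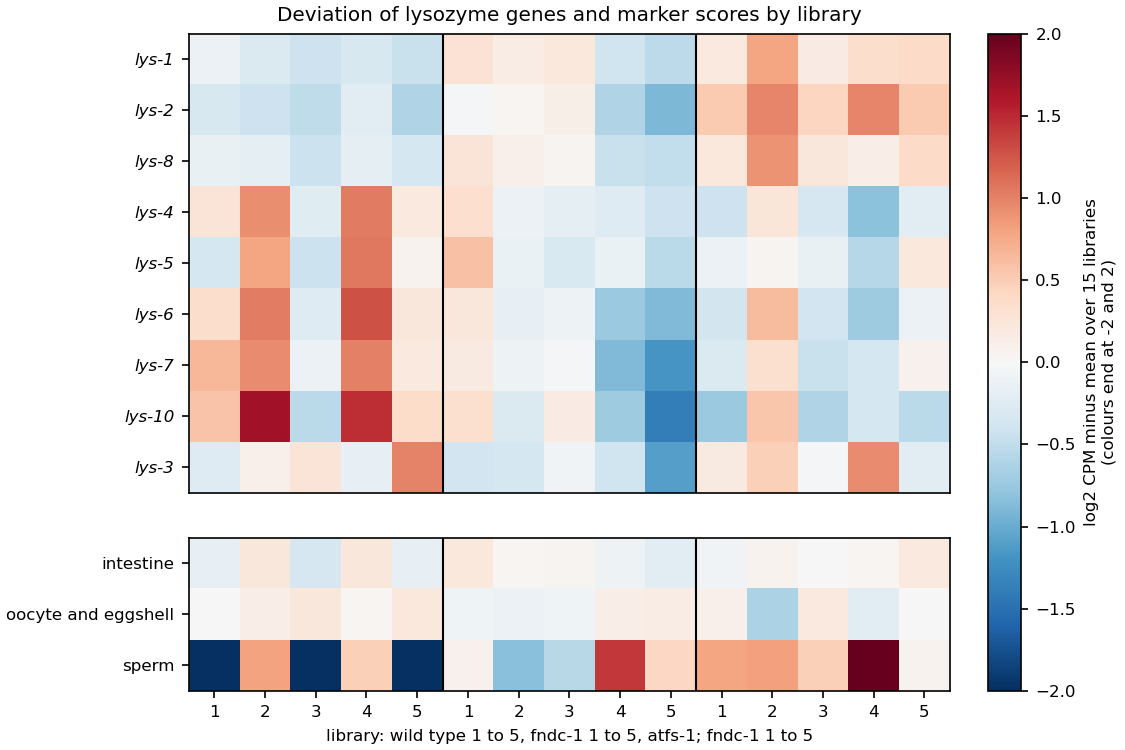
Deviation of the log2 CPM of each lysozyme gene, and of the mean over each marker list, from its mean over all 15 libraries (colour scale in log2 units, ending at -2 and 2), by library in the 3 strains of 5. The double mutant is red for lys-1, lys-2 and lys-8, fndc-1 libraries 4 and 5 are blue for most genes, and the sperm markers set wild-type libraries 1, 3 and 5 apart.

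The double mutant was compared with the fndc-1 mutant to ask what the atfs-1 mutation adds. Only lys-2 passed the threshold, 1 of 9, with 0.738% of all genes called higher and 0.978% called either way. It was also the 1 member whose ranges lay apart, against 2.67% of all genes with the double mutant higher, and 4 of 9 had an unadjusted p under 0.05, against 11.4%. The log2 fold changes of lys-1 and lys-8 were 0.42 (95% interval 0.10 to 0.73, adjusted p = 0.3355) and 0.48 (0.16 to 0.80, adjusted p = 0.2741). That of lys-3 was 0.81 (0.19 to 1.42, adjusted p = 0.335). For lys-4, lys-5, lys-6, lys-7 and lys-10 the values were -0.17, -0.04, 0.16, 0.20 and 0.01, with adjusted p = 0.7516 to 0.9944. The intervals of the last 5 still reach from -0.85 to 0.87 for lys-10 and from -0.64 to 0.31 for lys-4. The 3 comparisons share libraries, so their values are not independent of each other.

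**Figure D4:**
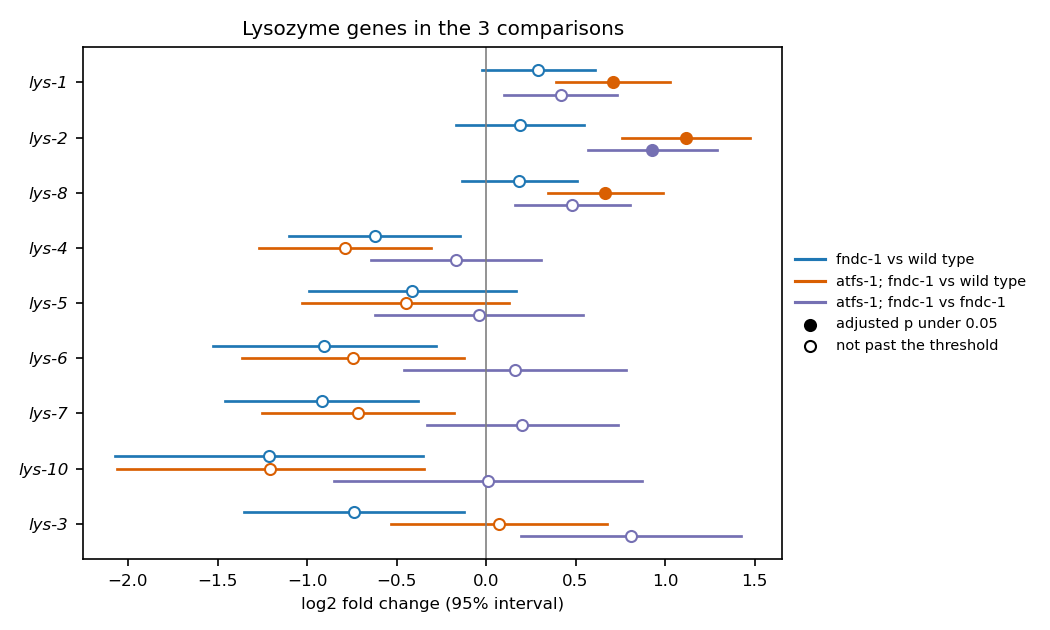
Log2 fold change (horizontal axis) with its 95% interval for each lysozyme gene in the 3 comparisons, which share libraries. Filled points have an adjusted p under 0.05: lys-1, lys-2 and lys-8 in the double mutant over the wild type, and lys-2 over the fndc-1 mutant.

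Ratios of the raw counts of 2 lysozyme genes in the same library do not depend on the scaling of the library. They were chosen after the values were seen and are given with no test. The lys-4 count over the lys-1 count was 2.14, 3.84, 1.84, 4.19 and 2.55 in the wild type, 1.70, 1.37, 1.25, 1.82 and 1.76 in the fndc-1 mutant, and 1.08, 1.11, 1.15, 0.728 and 1.08 in the double mutant. The 3 strains did not overlap, and lys-4 gave more counts than lys-1 in every library but 1. The lys-2 count over the lys-1 count was 0.328 to 0.404 in the wild type, 0.290 to 0.353 in the fndc-1 mutant and 0.416 to 0.582 in the double mutant, which lay above both. The lys-8 count over the lys-1 count was 0.606 to 0.671, 0.555 to 0.632 and 0.533 to 0.668, with all 3 strains overlapping. Of the 36 pairs of members, the ratio did not overlap for 6 between the fndc-1 mutant and the wild type. It did not overlap for 16 between the double mutant and the wild type, and for 7 between the mutants. Of these, 6, 14 and 5 paired lys-1, lys-2 or lys-8 with a member outside that group, as did 18 of all 36 pairs. The pairs reuse the same genes, so these counts are not independent of each other or of the fold changes. The share over pairs of all genes was not determined.

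**Figure D5:**
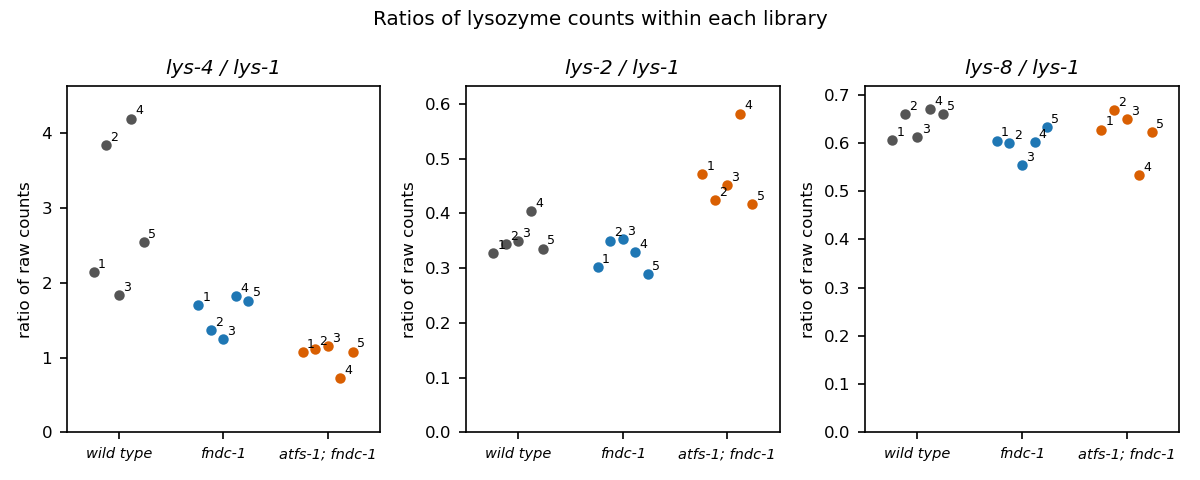
Ratio of the raw counts of 2 lysozyme genes within each library (vertical axes, linear and starting at 0), by strain, with library numbers. The lys-4 over lys-1 ratio is 1.84 to 4.19 in the wild type, 1.25 to 1.82 in the fndc-1 mutant and 0.728 to 1.15 in the double mutant, and the lys-8 over lys-1 ratio overlaps between all strains.

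Summed counts of the 9 genes made up 0.0680% to 0.181% of a library. lys-1, lys-2 and lys-8 together held 27.4% to 44.5% of them in the wild type, 46.7% to 53.3% in the fndc-1 mutant and 57.9% to 67.2% in the double mutant. lys-4 held 41.7% to 55.5%, 34.9% to 44.1% and 23.1% to 32.1% in the same order. The summed level of the 9 genes was 849 to 1552, 713 to 1274 and 1028 to 1586 CPM, so the strains overlapped in the sum. Its make-up lay apart for lys-1, lys-2 and lys-8 together. These genes were grouped because they were called higher in the double mutant, so their larger share there follows from that choice and is no further result.

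The invertebrate-type lysozymes were taken for comparison. Of the 6 genes counted, 4 were tested, and none passed the threshold in any of the 3 comparisons by edgeR. ilys-5 had the highest level, at 845 ± 118.5, 797 ± 146 and 779 ± 205 CPM per kilobase in N2, the single mutant and the double mutant (SD, n = 5), and its log2 fold change of the double mutant over the wild type was -0.12 (adjusted p = 0.6924). ilys-2 had a log2 fold change of -1.66 in the fndc-1 mutant (adjusted p = 0.08431), which DESeq2 called. ilys-3, a lysozyme of the pharynx and intestine that breaks down bacterial cell walls, had 2 to 111 counts per wild-type library. Its log2 fold changes were -2.21 and -2.15 in the mutants (adjusted p = 0.2461 and 0.1894). Wild-type libraries 2 and 4 had means of 2.09 CPM for ilys-2 and 1.66 CPM for ilys-3. Wild-type libraries 1, 3 and 5 had means of 0.690 and 0.132 CPM. With wild-type libraries 2 and 4 left out, 0 of the 4 genes had an unadjusted p under 0.05 in either mutant over the wild type.

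Other antimicrobial genes and the pathways upstream of lysozymes were described by lists chosen with earlier results of these data known. In the double mutant over the wild type, the saposin-like proteins, which permeabilise membranes, had 1 gene higher and 1 lower of 18 tested. spp-23 was at 8.40 ± 2.70 CPM in the wild type and 17.2 ± 6.82 CPM in the double mutant (SD, n = 5, log2 fold change 1.03, adjusted p = 0.02577). spp-2 was at 59.5 ± 34.6 and 21.5 ± 5.06 CPM (SD, n = 5, log2 fold change -1.47, adjusted p = 0.03557). Both calls were lost in some of the 28 other settings, 8 for spp-23 and 15 for spp-2. The thaumatin-like proteins had 0 of 2 tested called, with log2 fold changes of -1.18 for thn-1 and -0.79 for thn-2 (adjusted p = 0.08972 and 0.2115).

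No gene of the p38 MAP kinase list (8 tested), the DBL-1 list (8) or the insulin list (7) passed the threshold in any comparison. List medians were between -0.29 and 0.05. Double-mutant library 2 stood far below the rest of its strain in these lists. Their sums were 230, 82.2 and 540 CPM there, against 434 to 456, 169 to 183 and 1140 to 1343 CPM. With double-mutant libraries 2 and 4 left out, each list again had 0 called in the double mutant over the wild type. The part of library 2 alone in these results was not tested. Of 8 transcription factors of the gut and the immune response, the mutated gene atfs-1 itself was the 1 called, with a log2 fold change of -0.46 in the double mutant over the wild type and -0.31 over the fndc-1 mutant (adjusted p = 0.0004443 and 0.01558, the second lost in 4 of 28 settings). In the fndc-1 mutant over the wild type, none of the 55 genes tested from these lists and the invertebrate-type lysozymes passed it. DESeq2 called ilys-2 and spp-2 lower there, and limma-voom called 0.

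The intestine markers, whose tissue makes most lysozymes, were all detected in every library. Their summed level was 4117 to 6757 CPM in the wild type, 4744 to 6101 CPM in the fndc-1 mutant and 5304 to 6437 CPM in the double mutant, so the ranges overlapped. In the double mutant over the wild type 2 of 10 were higher: act-5, the actin of the microvilli, by a log2 fold change of 0.52 (adjusted p = 0.02882), and vha-6, a proton pump subunit of the gut surface, by 0.43 (adjusted p = 0.04957). Of the 28 other settings, the act-5 call was lost in 9 and the vha-6 call in 18. The median of the 10 was -0.04. Beside the log2 fold changes of 0.71, 1.12 and 0.67 for lys-1, lys-2 and lys-8, these are smaller values, and their part in the lysozyme result was not tested. A further intestine marker, the metallothionein gene mtl-2, was lower in the fndc-1 mutant than in the wild type (-0.75, adjusted p = 0.01068) and higher in the double mutant than in the fndc-1 mutant (0.68, adjusted p = 0.0259), calls that were lost in 3 and 10 of the other settings.

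In the double mutant over the wild type, 1 of 8 hypodermis markers was called higher, the adult collagen col-19 (0.88, adjusted p = 0.0118, lost in 2 of 28 settings). The summed level of that list was 759 to 1214 CPM in the wild type, 1074 to 1602 CPM in the fndc-1 mutant and 1333 to 2354 CPM in the double mutant. The double mutant thus lay above the wild type in the sum. The hypodermis score, in which each marker has the same weight, overlapped: -0.17 to 2.29 in the double mutant and -1.19 to 0.42 in the wild type. Of the 8 markers, 1 had ranges that lay apart with the double mutant higher. The sperm list had 0 of 34 called but 22 at an unadjusted p under 0.05, with a median log2 fold change of 1.57. With the sperm score as a covariate lys-8 missed the threshold (0.76, adjusted p = 0.05388), and lys-1 and lys-2 were still called. The part of the hypodermis level in the lysozyme result was not tested. The pharynx, neuron, muscle, and oocyte and eggshell lists had 0 called. Of the 14 oocyte and eggshell markers, 12 had negative and 2 positive log2 fold changes, with a median of -0.24. In the fndc-1 mutant over the wild type all 14 were negative, with a median of -0.09. Of these, 3 had ranges that lay apart, against 8.03% of all genes either way. Over the 15 libraries, Pearson's r of the oocyte and eggshell score was -0.80 with lys-1, -0.69 with lys-2 and -0.78 with lys-8. With the other members it was -0.22 to 0.0047.

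Double-mutant library 2 had the lowest oocyte and eggshell sum, 9660 CPM against 13432 to 18211 CPM in the other double-mutant libraries. It was the highest of its strain for 6 members, lys-1, lys-4, lys-6, lys-7, lys-8 and lys-10, as it was for 30% of all genes tested. Library 4 had the highest sperm sum, 1081 CPM. With both left out, the log2 fold changes over the wild type were 0.54 for lys-1, 0.88 for lys-2 and 0.52 for lys-8, and lys-2 was the 1 gene still called (adjusted p = 0.0956, 0.02343 and 0.07752). With the oocyte and eggshell score as a covariate they were 0.46, 0.85 and 0.42 (adjusted p = 0.03202, 0.004117 and 0.05625), and lys-4, lys-6, lys-7 and lys-10 passed the threshold as lower (-0.99, -1.12, -1.03 and -1.75, adjusted p = 0.03767, 0.04094, 0.03235 and 0.02699). In the fndc-1 mutant the same covariate called lys-6, lys-7 and lys-10 lower (-1.10, -1.11 and -1.50, adjusted p = 0.02684, 0.0153 and 0.03035). The number of calls over all genes moved too. In the double mutant over the wild type it was 493 with both libraries left out and 784 with the covariate, against 708. In the fndc-1 mutant over the wild type it was 1267 with the covariate, against 281.

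For each called member, the genes with the most similar pattern over the 15 libraries were sought among 5295 genes of at least 5 CPM with a gene-class symbol. By Pearson's r of log2 CPM, lys-1 was most like gst-36, a glutathione S-transferase, at 0.955, and hsp-17, a small heat shock protein, at 0.950. lys-2 was most like cdr-2, a gene of the cadmium-responsive family, at 0.940, and clec-160, a C-type lectin, at 0.937. lys-8 was most like ceeh-1, an epoxide hydrolase, at 0.930, and pgrn-1, the progranulin gene, at 0.927. The 15 libraries span the 3 strains, so these values include the strain differences by which the members were called and are a description.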

How the data were processed

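The authors deposited unnormalized counts of reads by gene for the 15 libraries. Their tools, per the submitters' processing notes, were STAR 2.6.0c, Trimmomatic 0.36 and featureCounts of Subread 1.6.1, on the build WBcel235. The strand setting, annotation release and treatment of multi-mapping reads were not given in the sources used here, so counts of overlapping or near-identical genes are uncertain. Per the labels' protocols, RNA was taken with Trizol, and both a TruSeq RNA and a TruSeq Stranded mRNA kit are named.

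Genes were kept by filterByExpr and scaled by TMM factors. CPM came from edgeR's cpm function on the scaled sizes, and CPM per kilobase from the merged exon length in the Ensembl annotation, in which all 9 members matched by name. The test was the two-sided quasi-likelihood test of edgeR 4.0.16 (R 4.3.3) on all 15 libraries with strain as the factor. Benjamini-Hochberg adjustment ran over all 15032 genes, with a threshold of 0.05, and adjusted p-values come from this test unless another is named. The SE is the size of the log2 fold change over the square root of F, and 95% intervals take the normal quantile. The scripts were tested on simulated data. Replicates of a strain were compared by chi-square, over genes whose pair of counts summed to 50 or more, and gave at least 8.07 per gene, so no pair agreed within sampling noise. Marker scores are the mean log2 CPM (prior count 2) of a list, each gene centred over the libraries.

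The members and lists were chosen with earlier results of these data known. The text names all 9 members, the mutated genes and up to 4 called genes per list by adjusted p. It also names the 2 most similar genes of each called member, sought outside the 9 members. Other list genes, the named ratios and the library sets were chosen after their values were seen. Other settings were DESeq2 1.42.0, limma-voom (limma 3.58.1), upper-quartile or RLE factors, no filter, at least 1 CPM in 5 libraries, the strains compared alone, the replicate number as a block, and each library left out. After seeing the data, 5 were added: 3 pairs of libraries left out, and the sperm or the oocyte and eggshell score as a covariate.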

Additional observations from a re-analysis of the deposited data

Results flagged for a closer look

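In 63 groups of 5 libraries, 5 held a library whose gap to the nearest other exceeded 0.71 of the range of the group. Chance alone flags about 1 in 20 groups. lys-5 in fndc-1 library 1 was at 5.715 CPM, with the other fndc-1 libraries at 2.6 to 3.47 CPM. The other 4 were all double-mutant library 2. lys-8 was at 296.4 CPM there against 174 to 207 CPM, lys-10 at 1.363 CPM against 0.535 to 0.714 CPM, fndc-1 at 10.16 CPM against 7.04 to 7.82 CPM, and spp-23 at 29.22 CPM against 12.7 to 15.7 CPM in the rest of the strain.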

How the results depend on the processing

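Over 28 other settings, 689 of 753 log2 fold changes of members kept their direction and their side of the threshold, 25 lost it, 11 gained it and 28 changed sign. In the fndc-1 mutant over the wild type, DESeq2 called 1 member and the oocyte and eggshell covariate 3, against 0. Over all genes they called 769 and 1267, against 281. In the double mutant over the wild type the count of 3 became 1 without double-mutant libraries 2 and 4. It was also 1 without wild-type libraries 2 and 4, and 6 with the oocyte and eggshell covariate. Over all genes these settings called 493, 1068 and 784 in the same order, against 708. Leaving out 1 library gave 1 to 4 members, the lowest for wild-type library 2, 4 or 5 and for double-mutant library 5. Over all genes these called 425, 397, 400 and 407 in that order. The 4 members were called without double-mutant library 2, with 1157 called over all genes. Over the fndc-1 mutant the count of 1 became 0 with the strains compared alone (lys-2 0.89, adjusted p = 0.1269), without double-mutant libraries 2 and 4 (0.70, 0.1623), without wild-type libraries 2 and 4 (0.92, 0.05809) or without fndc-1 libraries 4 and 5 (0.64, 0.07421); leaving out 1 library gave 0 to 1.

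Without wild-type libraries 2 and 4, lys-5 changed sign to 0.18 in the fndc-1 mutant and 0.13 in the double mutant, and lys-3 in the double mutant to -0.093. lys-3 was -0.31 without double-mutant libraries 2 and 4, -0.10 with the oocyte and eggshell covariate and -0.12 to 0.36 leaving out 1 library. In the double mutant over the fndc-1 mutant, lys-10 was -0.012 with RLE factors, -0.017 with DESeq2, -0.029 with the strains compared alone, -0.40 without double-mutant libraries 2 and 4, -0.37 when fndc-1 libraries 4 and 5 were left out, -0.26 and -0.25 with the oocyte and eggshell or the sperm covariate and -0.31 to 0.21 leaving out 1 library. lys-5 was 0.030 with upper-quartile factors, 0.033 without double-mutant libraries 2 and 4 and -0.15 to 0.18 leaving out 1 library. lys-6 was -0.020 without double-mutant libraries 2 and 4, -0.13 when fndc-1 libraries 4 and 5 were left out, -0.017 with the oocyte and eggshell covariate and -0.12 to 0.32 leaving out 1 library; lys-7 was -0.15 without fndc-1 libraries 4 and 5. The cause of these changes was not tested, and none of the sign changes was of a called value.

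Samples with the same replicate number correlated from -0.59 to 0.66 in their deviations, with 7 of 15 pairs over 0.1. The pairs of number 4 stood at 0.43, 0.54 and 0.66, and those of number 2 at -0.59, -0.13 and 0.35. The numbers therefore do not pair the samples throughout, and whether some of them do was not tested. With the replicate block 0, 3 and 1 members were called in the fndc-1 mutant, the double mutant and the double mutant over the fndc-1 mutant, as without it; lys-10 in the last was -0.056. Over all genes the block called 155 and 507 in the fndc-1 and the double mutant over the wild type, against 281 and 708, and DESeq2 called 769 and 1349, and 345 against 147 between the mutants. Other scalings moved the median of all genes by at most 0.085. Low counts limit lys-3 and lys-10, at 12 to 141 per library, as does their spread between libraries. In the wild type alone lys-10 had 33 to 141 counts.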
